A study of Mus musculus with 6 samples.

Results

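The RNA levels of 9 complement genes were compared between 2 mouse cell populations that carry different mutants of PPARγ2, the adipocyte isoform of the nuclear receptor PPARγ. The 9 genes were taken by symbol from the gene tables: *C1ra*, *C1s1* and *C4b* of the classical pathway, *C3*, *Cfb* and *Cfd* of the alternative pathway, and the regulators *Serping1*, *Cd55* and *Cd59a*. They are 9 of the 56884 gene IDs in each table, and 7 of them were among the 15426 genes with enough signal to be tested. The cells were a mouse scWAT SVF cell line, that is, an immortalized line from the stromal vascular fraction of subcutaneous white adipose tissue, which holds adipocyte precursors. PPARγ2K382Q has glutamine in place of the lysine K382 and mimics the acetylated receptor, whereas PPARγ2K382R has arginine there and mimics the deacetylated receptor. Each mutant was introduced with a retrovirus and puromycin selection, and RNA was taken on day 2 of beige adipocyte differentiation from 3 biological replicates per mutant. The induction medium was the same for both groups and held rosiglitazone at 0.5 μM, itself a PPARγ agonist, with T3 at 1 nM, insulin at 5 μg/mL, dexamethasone at 2 μg/mL, indomethacin at 125 μM and isobutylmethylxanthine at 500 μM. Cells without a mutant were not analysed here, so each difference is between the mutants and not from an unmodified state. Whether the replicates came from separate infections is not given in the sources used here, and the p-values measure the spread between these libraries.

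Complement is a cascade of serum proteases and adaptor proteins that marks and lyses microbes and damaged cells. In the classical pathway, C1q on an antibody activates the protease C1r, C1r activates C1s, and C1s cuts C4 and C2 into the enzyme that cleaves C3. In the alternative pathway, C3b binds factor B, and factor D cuts the bound factor B into a second C3-cleaving enzyme. Factor D, the product of *Cfd*, is also known as adipsin and is secreted mainly by adipocytes, while most other components come mainly from the liver. C1 inhibitor, CD55 and CD59 hold the cascade back at C1, at the C3-cleaving enzymes and at the terminal pore, respectively.

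The 3 classical genes were lower in PPARγ2K382Q-overexpressing cells than in PPARγ2K382R-overexpressing cells, by 2.90-fold for *C1ra*, 2.25-fold for *C1s1* and 1.81-fold for *C4b* by the ratio of the group means. Of the alternative genes, *Cfd* was 2.36-fold higher. The other alternative pathway genes, *C3* and *Cfb*, and the regulator *Cd59a* did not pass the test on TPM, the length-corrected share of a gene among the transcripts of its library. *Serping1* and *Cd55* were too low to be tested.

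At adjusted p under 0.05 (limma on log2(TPM + 0.5), Benjamini-Hochberg over all tested genes), 4 of the 7 tested genes were called, beside 48.1% of all tested genes. The 1 called higher in PPARγ2K382Q-overexpressing cells, *Cfd*, stood beside 11.1% of all genes, and the 3 called lower beside 36.9%. With a fold change over 2 as a further requirement, *Cfd*, *C1ra* and *C1s1* remained, beside 3.88% of all tested genes (1.27% higher and 2.61% lower). The libraries of the mutants did not overlap for these 4 of the 7 genes, beside 57.0% of all tested genes. PPARγ2K382Q lay below PPARγ2K382R in every library for 3 of them, beside 42.8% of all genes, and above it for *Cfd*, beside 14.1%. The median log2 fold change was -0.27 over the 7 genes and -0.14 over all tested genes, so a value near -0.14 is the middle of the distribution. When each library was scaled by the median ratio of its genes, the median of all genes was 0.00 (0.0039) and the calls over all genes split into 3069 higher and 3143 lower, in place of 1717 and 5698.

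The libraries were checked before the single genes were compared. They held an estimated 5.95 to 8.15 Gb of aligned bases and 22663 to 23837 genes with a TPM above 0. The estimate is the commonest ratio of coverage to FPKM in a library, which 2570 to 2640 of 13238 to 13352 compared genes shared, while most genes had another ratio. Along the first principal component, which took 61.3% of the variance, the libraries of the mutants were apart. *Pparg*, which includes the RNA of the introduced receptor as far as it maps to that gene, was at 1104 to 1333 TPM in the PPARγ2K382Q libraries and at 1590 to 1632 TPM in the PPARγ2K382R libraries, and the tables do not show the mutated codon. Markers of other cell types were low. Of 8 leukocyte and macrophage markers only *Cd68* was tested, *Adgre1* and *Cd3e* were listed at 0 in all 6 libraries, and the summed TPM of the list was 3.62 to 4.79 in PPARγ2K382Q and 3.60 to 5.27 in PPARγ2K382R. Of 6 endothelial markers only *Pecam1* was tested, *Emcn* was listed at 0 throughout, and the sums were 1.60 to 2.25 and 1.71 to 1.94 TPM. Of 6 hepatocyte markers only *Apoa1* was tested, with *Ttr*, *Serpina1c* and *Cyp3a11* at 0 in all libraries, and the sums were 1.28 to 2.02 TPM in PPARγ2K382Q and 0.256 to 1.03 TPM in PPARγ2K382R. All 8 adipocyte markers were tested, with summed TPM of 54260 to 58084 in PPARγ2K382Q and 44733 to 46029.5 in PPARγ2K382R. In that list, *Fabp4*, *Cidec* and *Cd36* were called higher, *Adipoq* and *Lpl* lower, and 3 were not called. Under median-ratio scaling *Lpl* was not called, while *Plin1* and *Pnpla2* were called higher.

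To show what lies in front of the genes that moved and of *C3*, the 250 bases upstream of their annotated starts are given, from the RefSeq promoter table of build GRCm38.p6, which is not the build of the gene tables. The table held 6 of the 9 genes, all but *C4b*, *Cfb* and *Serping1*. Capitals mark a match to 1 of 5 searched motifs. The *C1ra* window is chr6:124512371-124512620 on the plus strand, the *C1s1* window, 1 of 2 for that gene, is chr6:124542360-124542609 on the minus strand, the *C3* window is chr17:57228137-57228386 on the minus strand, and the *Cfd* window is chr10:79890603-79890852 on the plus strand.
C1ra: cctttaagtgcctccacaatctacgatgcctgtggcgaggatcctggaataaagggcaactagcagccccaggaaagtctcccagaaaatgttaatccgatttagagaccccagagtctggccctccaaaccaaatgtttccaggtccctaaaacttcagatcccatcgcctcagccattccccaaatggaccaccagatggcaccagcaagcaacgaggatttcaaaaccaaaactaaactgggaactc
C1s1: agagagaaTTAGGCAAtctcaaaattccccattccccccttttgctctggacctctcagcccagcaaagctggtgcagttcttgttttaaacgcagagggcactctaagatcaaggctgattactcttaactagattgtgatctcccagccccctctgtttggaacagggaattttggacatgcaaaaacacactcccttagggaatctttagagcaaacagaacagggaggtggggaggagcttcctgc
C3: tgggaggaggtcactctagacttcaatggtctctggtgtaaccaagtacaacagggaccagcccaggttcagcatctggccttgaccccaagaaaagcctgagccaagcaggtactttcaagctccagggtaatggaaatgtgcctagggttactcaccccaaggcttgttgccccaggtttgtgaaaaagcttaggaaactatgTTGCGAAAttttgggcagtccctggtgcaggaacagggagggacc
Cfd: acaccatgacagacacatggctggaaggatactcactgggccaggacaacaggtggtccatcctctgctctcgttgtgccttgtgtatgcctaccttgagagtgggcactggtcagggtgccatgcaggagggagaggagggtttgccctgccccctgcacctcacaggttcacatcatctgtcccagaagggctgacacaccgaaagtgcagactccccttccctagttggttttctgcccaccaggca

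The 5 motifs, searched on both strands, were the core of the interferon-stimulated response element (GAAA, any 2 bases, GAAA), the STAT-binding GAS core TTCNNNGAA, the kappa B letters (GGGA, any 2 bases, TTCC), the C/EBP letters TTGCNNAA and a direct repeat bound by PPARγ with RXR (AGGNCA, any base, AGGNCA). No match overlapped another. In *C3*, TTGCGAAA matched the C/EBP letters at positions -45 to -38 from the start. In the *C1s1* window shown, TTAGGCAA matched the same letters on the opposite strand, at -242 to -235, and the other *C1s1* window had no match. In *Cd59a*, GAAAGGGAAA matched the interferon element core at -187 to -178. The windows of *C1ra*, *Cfd* and *Cd55* held none of the 5 motifs. Of all 32851 windows of this length, 9.56% held the C/EBP letters, 7.02% the GAS core, 2.98% the interferon element core, 1.21% the kappa B letters and 0.338% the direct repeat. A match is a string of letters and was not tested for binding.

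*C1ra* and *C1s1* encode the proteases of the C1 complex and are neighbours. In the tables (GRCm39), *C1ra* (ENSMUSG00000055172.11) lies at chr6:124489364-124500402 on the plus strand and *C1s1* (ENSMUSG00000038521.18) at chr6:124507304-124519318 on the minus strand, with 6901 bases between their 3′ ends. Their GENCODE reference transcripts have 11 and 12 exons. *C1ra* stood at 3.49, 3.12 and 2.67 TPM in the PPARγ2K382Q libraries and at 8.88, 9.40 and 8.62 TPM in the PPARγ2K382R libraries. Every PPARγ2K382Q value was thus less than every PPARγ2K382R value, by a wide margin against the spread. The means were 3.09 ± 0.411 and 8.97 ± 0.394 TPM (SD, n = 3 each), the log2 fold change was -1.41 (SE 0.106, 95% interval -1.65 to -1.16), and limma's adjusted p was 3.20e-05. Only 0.979% of all tested genes had a larger decrease.

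*C1s1* stood at 3.80, 3.68 and 3.23 TPM in PPARγ2K382Q and at 8.17, 8.02 and 7.94 TPM in PPARγ2K382R. The groups were again apart, and the PPARγ2K382R libraries were within a narrow range. The means were 3.57 ± 0.302 and 8.04 ± 0.115 TPM (SD, n = 3 each), with a log2 fold change of -1.07 (SE 0.0884) and a limma adjusted p of 4.93e-05. Both genes were lower and called under all 17 alternative settings, with log2 fold changes from -1.51 to -1.17 for *C1ra* and from -1.16 to -0.88 for *C1s1*. With median-ratio scaling, *C1s1* was at -0.93 and no longer past the 2-fold threshold. The ratio of *C1ra* to *C1s1* TPM within a library was 0.863 ± 0.0482 in PPARγ2K382Q and 1.11 ± 0.0489 in PPARγ2K382R, so the groups did not overlap there either. The exact permutation test on that ratio gave p = 0.1, which is the smallest two-sided p that 3 against 3 libraries allow.

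*C4b* encodes the C4 protein that C1s cuts. It has 41 exons and lies at chr17:34947354-34962856 on the minus strand (ENSMUSG00000073418.5), in the class III region of the major histocompatibility complex, 65212 bases from its duplicate *C4a*. The PPARγ2K382Q libraries held 6.57, 5.999 and 5.79 TPM and the PPARγ2K382R libraries 11.3, 10.7 and 11.3 TPM. The groups did not overlap, and the gap between them was larger than the range within either group. The means were 6.12 ± 0.406 and 11.1 ± 0.374 TPM (SD, n = 3 each), the log2 fold change was -0.81 (SE 0.0751), and limma's adjusted p was 8.97e-05. It stayed below 2-fold and was called under all 17 settings, from -0.87 to -0.66.

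The summed TPM of the 3 classical genes was 11.7 to 13.9 in PPARγ2K382Q and 27.9 to 28.3 in PPARγ2K382R. Markers of preadipocytes or fibroblasts moved with these genes. Of that list, 6 of 8 were tested and all 6 were called lower, with a median log2 fold change of -0.94 and summed TPM of 535 to 578 in PPARγ2K382Q against 925 to 963 in PPARγ2K382R. *Dpp4* and *Lum* of the list were at 0 in all libraries. In bulk RNA, fewer cells of a type and less RNA per cell cannot be told apart, and the part of these markers in the classical genes was not tested.

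Several of these genes have near-identical copies. *C1rb*, a duplicate of *C1ra*, shared 26.3% of the 150-base windows of the *C1ra* transcript, *C4a* shared 8.17% of those of *C4b*, and *C1s2* shared 2.89% of those of *C1s1*, so part of each value could have been assigned to either copy. *C4a* did not pass the test, at 1.25 ± 0.276 TPM in PPARγ2K382Q and 1.15 ± 0.0694 TPM in PPARγ2K382R (SD, n = 3 each; log2 fold change 0.07, limma adjusted p = 0.757). On read depth per base, scaled to the same total in each library, *C4a* was lower in PPARγ2K382Q without overlap. The log2 fold change was then -0.23 (limma adjusted p = 0.157). Its direction thus depended on the measure, and the ratio to *C4a* given next is on TPM only. The ratio of *C4b* to *C4a* was 4.36, 4.68 and 6.04 in PPARγ2K382Q and 10.3, 9.45 and 9.20 in PPARγ2K382R, without overlap (exact permutation p = 0.1). *C1rb* was called lower, at 0.505 ± 0.211 against 1.13 ± 0.186 TPM (SD, n = 3 each; log2 fold change -0.71, limma adjusted p = 0.0270), but in only 10 of the 16 settings that tested it. The ratio of *C1ra* to *C1rb* overlapped between the mutants (exact permutation p = 0.5).

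**Figure D1:**
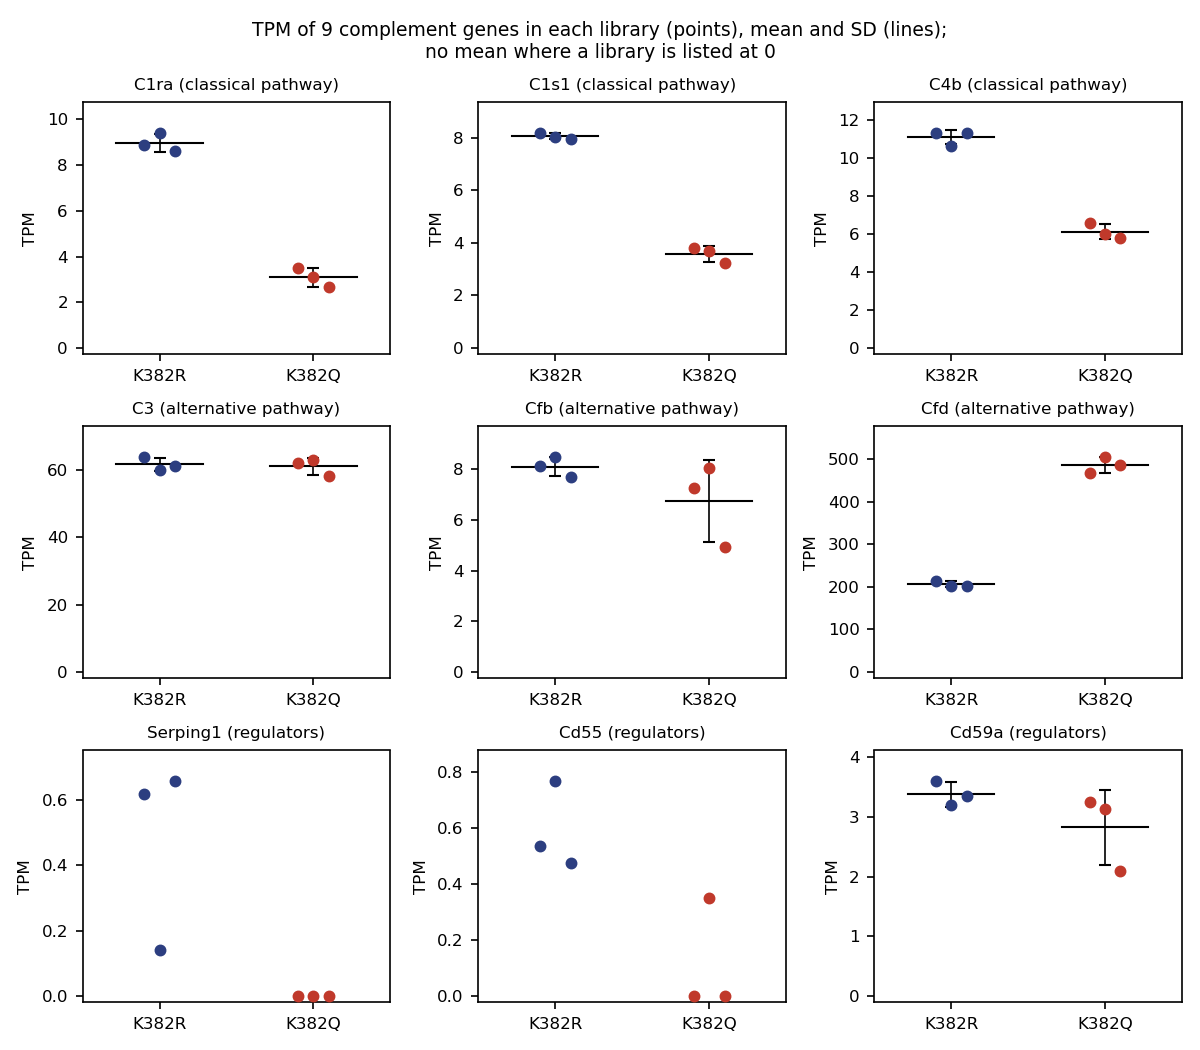
TPM of the 9 genes (vertical axis, a separate linear scale from 0 in each panel) in the 3 libraries of each mutant, with the mean and SD as lines where no library is listed at 0. The groups are apart for C1ra, C1s1, C4b, Cfd, Serping1 and Cd55, and they overlap for C3, Cfb and Cd59a.

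*Cfd* was by far the most abundant of the 9. The gene (ENSMUSG00000061780.7) has 5 exons and spans 1803 bases at chr10:79726687-79728489 on the plus strand. It stood at 467, 504 and 485 TPM in PPARγ2K382Q and at 214, 203 and 201 TPM in PPARγ2K382R. The lowest PPARγ2K382Q library was thus far above the highest PPARγ2K382R library. The means were 485 ± 18.7 and 206 ± 7.22 TPM (SD, n = 3 each), with a log2 fold change of 1.24 (SE 0.0393, 95% interval 1.14 to 1.33) and a limma adjusted p of 6.92e-07. Of all tested genes, 2.89% had a higher mean TPM and 0.726% a larger increase. *Cfd* was higher and called under all 17 alternative settings, with log2 fold changes from 1.21 to 1.39. It made up 84.4%, 85.2% and 86.3% of the summed TPM of the 9 genes in PPARγ2K382Q and 67.1%, 66.9% and 66.5% in PPARγ2K382R.

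Other adipocyte genes did not move by the same amount as *Cfd*. *Fabp4*, a fatty acid carrier, was at 47890 ± 2099 TPM in PPARγ2K382Q and 37840 ± 617 TPM in PPARγ2K382R (SD, n = 3 each), and the ratio of *Cfd* to *Fabp4* was 1.86-fold higher in PPARγ2K382Q. *Adipoq*, which encodes the adipokine adiponectin, went the other way, from 360 ± 20.2 TPM in PPARγ2K382R to 148 ± 1.20 TPM in PPARγ2K382Q (SD, n = 3 each; log2 fold change -1.28, limma adjusted p = 7.63e-07). The ratio of *Cfd* to *Adipoq* was 3.13, 3.43 and 3.28 in PPARγ2K382Q and 0.559, 0.586 and 0.572 in PPARγ2K382R, a 5.73-fold difference. Both ratios separated the groups (exact permutation p = 0.1 each). The summed adipocyte markers were also higher in PPARγ2K382Q, but most of that sum is *Fabp4*, and the median log2 fold change of the 8 markers was -0.03. Their part in the level of *Cfd* was not tested.

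*C3* encodes the protein on which all pathways converge. It has 41 exons and lies at chr17:57510970-57535136 on the minus strand (ENSMUSG00000024164.16). It stood at 62.1, 62.9 and 58.2 TPM in PPARγ2K382Q and at 63.8, 59.9 and 61.3 TPM in PPARγ2K382R. The libraries of the mutants were intermingled. The means were 61.1 ± 2.55 and 61.6 ± 1.97 TPM (SD, n = 3 each), the log2 fold change was -0.01 (SE 0.0438, 95% interval -0.11 to 0.09), and limma's adjusted p was 0.833. The sign of so small a value depended on the scaling. It was 0.14 with median-ratio scaling (limma adjusted p = 0.0363) and 0.15 with quantile normalization (limma adjusted p = 0.0264), where *C3* was called higher, as it was in 3 of the 17 settings in all. Relative to the median of all tested genes, *C3* was 0.12 higher on the log2 scale in the TPM fit.

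*Cfb* encodes factor B, the substrate of factor D. It has 18 exons and lies at chr17:35075350-35081494 on the minus strand (ENSMUSG00000090231.11), 85 bases from *C2*, its classical pathway counterpart. It stood at 7.26, 8.04 and 4.95 TPM in PPARγ2K382Q and at 8.12, 8.48 and 7.71 TPM in PPARγ2K382R. The groups overlapped, and PPARγ2K382Q replicate 3 was the lowest of all. The means were 6.75 ± 1.60 and 8.10 ± 0.385 TPM (SD, n = 3 each), with a log2 fold change of -0.27 (SE 0.159, 95% interval -0.64 to 0.10) and a limma adjusted p of 0.201. Without PPARγ2K382Q replicate 3 the log2 fold change was -0.08.

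*Cfb* differed between the mutants when the deposited coverage, the average number of reads over each base, was used in place of TPM, a measure added after seeing the data. Scaled to the same total in each library, coverage was 7.86, 8.50 and 6.98 in PPARγ2K382Q and 12.2, 12.3 and 11.1 in PPARγ2K382R. On this scale the groups did not overlap, and the log2 fold change was -0.58 (SE 0.0861, limma adjusted p = 0.00198). With median-ratio scaling of the coverage it was -0.42 (limma adjusted p = 0.0113). The call for *Cfb* therefore depended on the measure. The call for *C3* followed the scaling, not the measure, since it passed with median-ratio scaling of either TPM or coverage (limma adjusted p = 0.0333 for coverage) and with neither measure as shares of the library (limma adjusted p = 0.487 for coverage). The *Cfb* transcript shares 61.1% of its 150-base windows with *Gm20547*, a predicted gene that overlaps *Cfb* and *C2*. *Gm20547* was listed at 0 to 0.0196 TPM in PPARγ2K382Q and at 0 to 0.149 TPM in PPARγ2K382R. The microRNA gene *Mir6972* within *Cfb* was listed at 6.54 to 9.68 TPM. The part of these overlaps in the value of *Cfb* was not tested. The TPM and the coverage of *Cfb* were not in a fixed ratio between libraries, and how the deposited tables weight the isoforms of a gene cannot be checked from gene-level values, so the *Cfb* difference is uncertain.

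**Figure D2:**
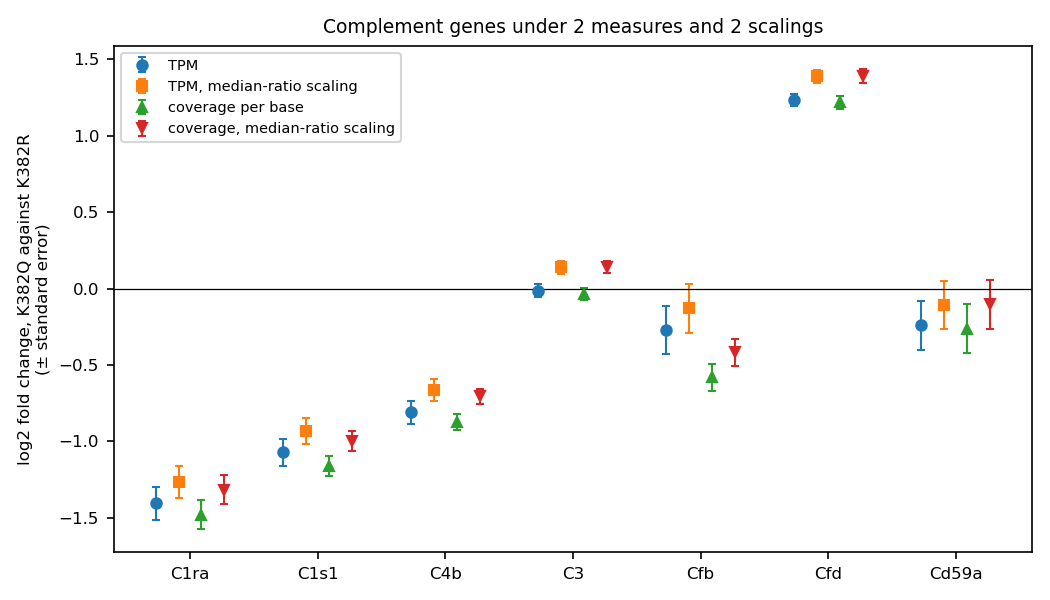
Log2 fold change of PPARγ2K382Q against PPARγ2K382R (vertical axis, with standard errors as bars) for the 7 tested genes, from TPM and from coverage per base, each as shares of the library and with median-ratio scaling. C1ra, C1s1, C4b and Cfd keep their direction, C3 crosses 0 with the scaling, and Cfb is lower from coverage than from TPM.

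The other genes were also set against *C3* within each library, which removes any common scaling. *C3* was taken as the denominator after it was seen to be at nearly the same TPM in both groups, so these ratios restate the TPM differences, are given as a description and add no support to them. *Cfd* was at 7.51, 8.01 and 8.33 times the TPM of *C3* in PPARγ2K382Q and at 3.36, 3.39 and 3.28 times in PPARγ2K382R. The ratio of *C1ra* to *C3* was 0.0505 ± 0.00520 in PPARγ2K382Q and 0.146 ± 0.00980 in PPARγ2K382R (SD, n = 3 each), 2.89-fold lower. The ratios of *C1s1* and *C4b* to *C3* were 2.24-fold and 1.80-fold lower. The ratio of *Cfb* to *C3* overlapped between the mutants. The ratio of *Cd59a* to *C3* was 0.0521, 0.0498 and 0.0360 in PPARγ2K382Q and 0.0564, 0.0533 and 0.0545 in PPARγ2K382R, which did not overlap, whereas the TPM of *Cd59a* did. In all, 14 TPM ratios were computed, and the lowest Benjamini-Hochberg value over them was 0.127, since 3 against 3 libraries cannot reach an exact p under 0.1.

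**Figure D3:**
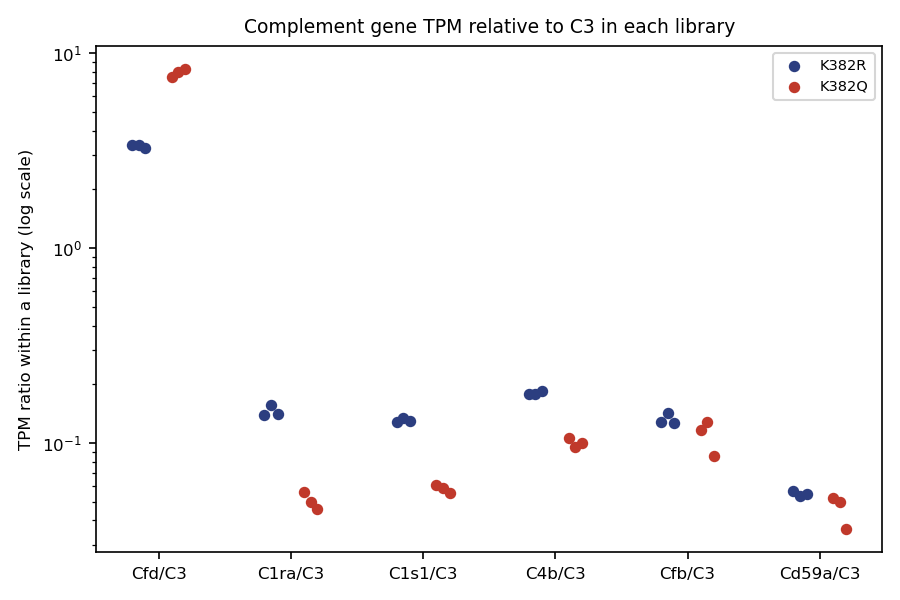
TPM of Cfd, C1ra, C1s1, C4b, Cfb and Cd59a divided by the TPM of C3 in the same library (vertical axis, log scale), 3 points per mutant. The Cfd ratio is above 7 in PPARγ2K382Q and below 4 in PPARγ2K382R, and the 3 classical ratios are lower in PPARγ2K382Q.

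The 3 regulators among the 9 genes were low. The regulator *Cr1l*, from the list of further genes and chosen after its values were seen, was at 41.3 ± 1.82 TPM in PPARγ2K382Q and 43.6 ± 2.57 TPM in PPARγ2K382R (SD, n = 3 each) and was not called (log2 fold change -0.08, limma adjusted p = 0.297). Its lead over the others was smaller on coverage scaled to the same total. There *Cr1l* was at 13.0 in both groups, and *Cd59a* at 4.44 in PPARγ2K382Q and 5.34 in PPARγ2K382R. *Serping1*, which encodes C1 inhibitor, the serpin that blocks C1r and C1s, has 8 exons at chr2:84595731-84605788 on the minus strand (ENSMUSG00000023224.13). It was listed at 0 in all 3 PPARγ2K382Q libraries and at 0.616, 0.140 and 0.657 TPM in the PPARγ2K382R libraries. It thus had signal in every library of only 1 mutant, at a read depth of at most 1.32 per base. It did not pass the filter of 0.5 TPM in at least 3 libraries. When that filter was left out, it was lower with a limma adjusted p of 0.0447, and no fold is given against a group listed at 0.

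*Cd55* encodes decay-accelerating factor, which takes apart the C3-cleaving enzymes on the cell surface. It has 10 exons at chr1:130366764-130390481 on the minus strand (ENSMUSG00000026399.13). It was listed at 0, 0.349 and 0 TPM in PPARγ2K382Q and at 0.536, 0.766 and 0.473 TPM in PPARγ2K382R. All PPARγ2K382R values were higher, but none of the 6 libraries had a read depth of more than 1.26 per base. It failed the same filter, and without the filter limma's adjusted p was 0.0581.

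*Cd59a* encodes the membrane protein that stops the assembly of the terminal pore. It has 4 exons at chr2:103926146-103945699 on the plus strand (ENSMUSG00000032679.13). It stood at 3.24, 3.13 and 2.09 TPM in PPARγ2K382Q and at 3.60, 3.19 and 3.34 TPM in PPARγ2K382R. The groups overlapped, and PPARγ2K382Q replicate 3 was again the lowest. The means were 2.82 ± 0.633 and 3.38 ± 0.206 TPM (SD, n = 3 each), with a log2 fold change of -0.24 (SE 0.158, 95% interval -0.61 to 0.13) and a limma adjusted p of 0.254. It was called in 0 of 17 settings, and the fold change was -0.07 without PPARγ2K382Q replicate 3. The interval still allows a decrease of 0.61 on the log2 scale. *Cd59b*, its duplicate, shares 8.10% of the windows and was not called either, at 1.25 ± 0.300 and 1.24 ± 0.0219 TPM (SD, n = 3 each; limma adjusted p = 0.977).

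The rest of the complement system was examined with a list of 48 further genes. Of these, 15 were listed at 0 in all 6 libraries: *C1qa*, *C1qb* and *C1qc*, the chains of C1q, *Mbl1*, *Mbl2* and *Colec10* of the lectin pathway, *C6*, *C8a* and *C8b* of the terminal pore, the regulators *Cd55b*, *C4bp*, *Vtn* and *Cpn2*, and the receptors *C5ar1* and *Vsig4*. Only 14 of the 48 were tested. In PPARγ2K382Q-overexpressing cells 7 of the 14 were called lower, beside 36.9% of all tested genes, and 2 higher, beside 11.1%. These counts moved with the processing, with 2 lower and 2 higher under median-ratio scaling, and 2 to 4 lower and 1 to 2 higher when 1 library was left out, where 4939 to 5511 of all 15426 tested genes were called lower and 1443 to 1546 higher. The median log2 fold change of the 14 was -0.13, near that of all genes.

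Among the further classical genes, *C1rl*, a C1r-like protease gene next to *C1ra*, was at 5.70 ± 0.265 TPM in PPARγ2K382Q and 8.90 ± 0.889 TPM in PPARγ2K382R (SD, n = 3 each; log2 fold change -0.60, limma adjusted p = 0.00109). *C2* was at 2.91, 2.55 and 2.11 TPM against 4.81, 3.96 and 2.94 TPM (log2 fold change -0.53, limma adjusted p = 0.0438 over n = 3 each). The groups of *C2* were close to touching, and it was called in only 6 of 17 settings. In the lectin pathway, *Masp1*, which encodes a protease related to C1r and C1s, was at 0.642, 1.14 and 0.876 TPM against 2.74, 2.41 and 2.79 TPM. Its log2 fold change was -1.20 (SE 0.170, limma adjusted p = 0.000768), the only 1 of the 14 past both thresholds. *Colec12*, a collectin on the cell surface, was at 11.8 ± 0.415 against 13.5 ± 0.446 TPM (SD, n = 3 each; log2 fold change -0.19, limma adjusted p = 0.0341).

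*Cfp*, which encodes properdin, the stabilizer of the alternative C3-cleaving enzyme, was at 2.86 ± 0.535 against 4.05 ± 0.550 TPM (SD, n = 3 each; log2 fold change -0.44, limma adjusted p = 0.0456). *Colec12* and *Cfp* were each called in 6 of 17 settings. The 2 genes called higher were *Clu*, which encodes clusterin, an inhibitor of the terminal pore, and *C8g*, a lipocalin chain of C8. *Clu* was at 3.25, 3.50 and 4.60 TPM in PPARγ2K382Q and 2.09, 1.80 and 2.60 TPM in PPARγ2K382R (log2 fold change 0.68, SE 0.166, limma adjusted p = 0.0106). *C8g* was at 3.56 ± 0.162 against 2.57 ± 0.543 TPM (SD, n = 3 each; log2 fold change 0.42, limma adjusted p = 0.0429) and was called in 10 of 17 settings. Of the 9 further genes called, *C1rl*, *Masp1* and *Clu* were called in 17 of 17 settings.

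**Figure D4:**
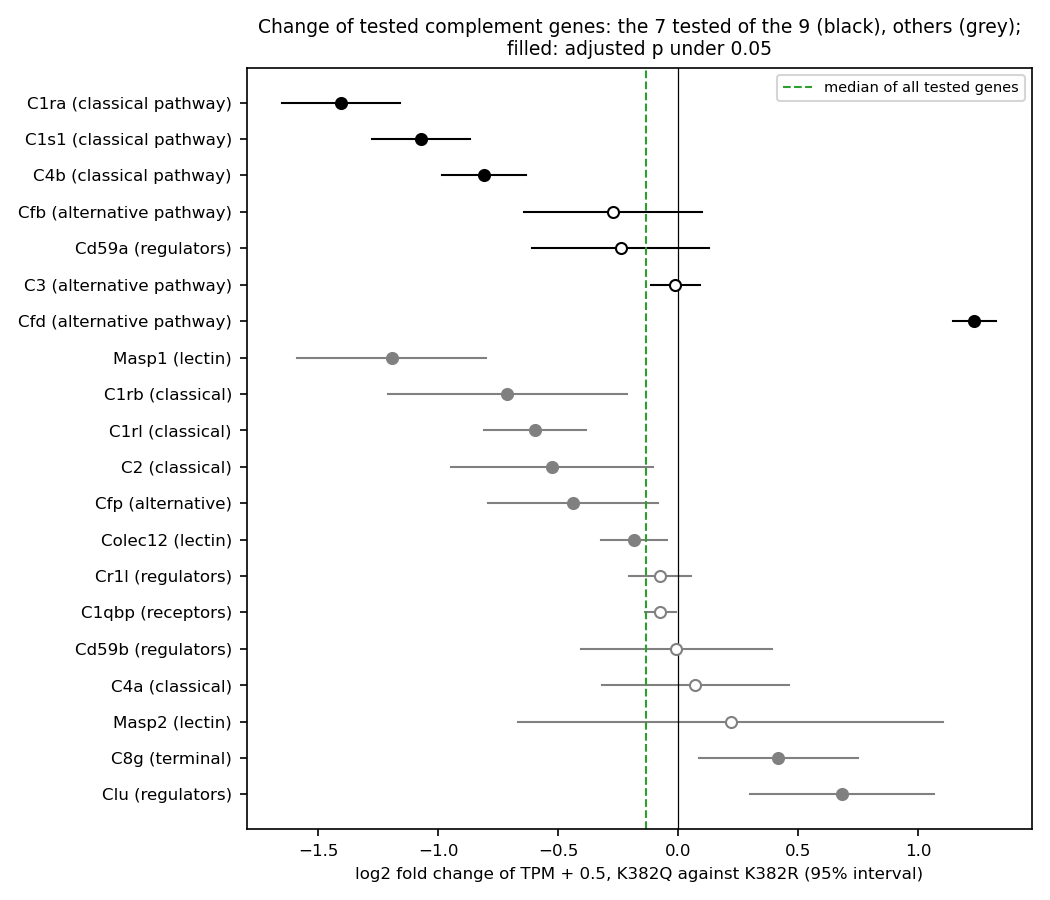
Log2 fold change of TPM + 0.5, PPARγ2K382Q against PPARγ2K382R (horizontal axis, with 95% intervals), for the 7 tested genes of the 9 (black) and the further tested complement genes reported here (grey), filled where adjusted p is under 0.05. The dashed line is the median of all tested genes at -0.14, and C1ra and Cfd lie at the ends with -1.41 and 1.24.

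The top and the bottom of the order of levels were the same in both groups. *Cfd* was the highest, *C3* came next, and each stood clear of its neighbours in every library. In PPARγ2K382R the next were *C4b* at 11.1, *C1ra* at 8.97, *Cfb* at 8.10 and *C1s1* at 8.04 TPM, of which *Cfb* and *C1s1* did not differ beyond their spread. In PPARγ2K382Q they were *Cfb* at 6.75, *C4b* at 6.12, *C1s1* at 3.57, *C1ra* at 3.09 and *Cd59a* at 2.82 TPM, and within the pair *Cfb* and *C4b*, and among the last 3, the levels overlapped. *Cd59a*, at 3.38 TPM, came after the classical genes in PPARγ2K382R, and *Cd55* and *Serping1* were the lowest in both groups.

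The genes whose log2 values ran most closely with *Cfd* over the 6 libraries were *Higd1a*, *Acaa1b* and *Prxl2a*, with root mean square differences of 0.0289, 0.0365 and 0.0405 after centring. *Higd1a*, a mitochondrial inner membrane protein gene, was at 319 to 345 TPM in PPARγ2K382Q and 143 to 151 TPM in PPARγ2K382R. *Acaa1b*, which encodes a peroxisomal thiolase of fatty acid oxidation, was at 347 to 366 TPM against 144 to 148 TPM, and *Prxl2a* was at 215 to 219 TPM against 92.5 to 94.9 TPM. The genes closest to *C3* were *Mthfsd*, *Xpnpep3* and *Spryd3*, with root mean square differences of 0.0175, 0.0177 and 0.0235. *Spryd3*, for example, was at 43.4 to 48.2 TPM in PPARγ2K382Q and 45.7 to 46.5 TPM in PPARγ2K382R. The likeness was measured over 6 libraries of 2 groups and was used only to rank genes.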

How the data were processed

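RNA-seq of 6 libraries (3 per mutant) was analysed. Per the paper's methods and the submitters' processing notes, the authors aligned 150-base read pairs to GRCm39 with HISAT2 and quantified genes with StringTie. The annotation release and the use of strand are not given in the sources used here. The authors deposited 1 gene table per library with coverage (mean read depth per base, not normalized), FPKM (normalized for library size, but not in 1 fixed ratio to coverage for most genes) and TPM (length-corrected shares, with the same total in each library). No counts were used, so a limma test on log values replaced the count test of the authors. The values of 3 to 5 repeated gene IDs per table were summed. Genes that reached 0.5 TPM in 3 or more of the 6 libraries (15426) were tested with limma 3.58.1 in R 4.3.3, with an intensity trend, on log2(TPM + 0.5). P-values were adjusted over all of them by the Benjamini-Hochberg method. Fold changes are on that scale and understate changes of low genes. Genes were called at adjusted p under 0.05, and the fold threshold was 2. On simulated data for this comparison with 15426 genes, 193 of 200 changed genes were recovered, 0 in the wrong direction, with 1 false call.

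The 9 genes and the lists were chosen with earlier results of these data known. Named genes were the 9 genes, every further complement gene that was called or listed at 0 throughout, and for *C3* and *Cfd* the 3 genes with the smallest root mean square difference. Some further genes (*C4a*, *Cd59b*, *Cr1l* and markers) were named beside a result after their values were seen. TPM ratios were tested with exact two-sided permutation over 20 splits. The largest share of identical values between libraries was 0.0102% of genes, so each library was counted as its own sample. An exact 0 in these tables can be a failed estimate. Alternatives were other pseudocounts, filters, FPKM, scalings, no trend, a replicate block and leaving out each library, and 2 on coverage were chosen after seeing the data. 1 of the further complement genes called is counted but not reported here. Protein sequences were not analysed here.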

Additional observations from a re-analysis of the deposited data

How the results depend on the processing

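*C1ra*, *C1s1*, *C4b* and *Cfd* kept their direction and call in all 17 alternatives. The log2 fold change of *C3* turned positive with FPKM (0.0699), median-ratio scaling (0.14), quantile normalization (0.15) and coverage with median-ratio scaling (0.14), and ranged from -0.0347 to 0.0217 over the fits that left out 1 library. *Cfb* was called only from coverage scaled to the same total per library (-0.58) or by median ratios (-0.42), both chosen after seeing the data. Genes of the 9 called higher were 2 with the 2 median-ratio scalings and quantile normalization. Those lower past both thresholds were 1, *C1ra*, under the same settings, with FPKM and with a pseudocount of 1.

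Further complement genes called, 9 in the TPM fit, were 5 without a filter (1 higher, 4 lower), 5 with FPKM (3 lower), 4 with median-ratio scaling (2 lower), 5 with quantile normalization (3 lower), and 4 lower with median-ratio coverage. Calls over all genes moved too, from 7415 of 15426 in the TPM fit to 6540 of 29522 without a filter. Of the same 15426 genes, 6503 were called with FPKM, 6212 with median-ratio scaling, 6195 with quantile normalization and 6408 with median-ratio coverage. Leaving out 1 library gave 3 to 6 called, 1 to 2 higher and 2 to 4 lower: 5, 4 and 3 without PPARγ2K382Q replicates 1, 2 and 3, and 3, 4 and 6 without PPARγ2K382R replicates 1, 2 and 3. Those fits called 6382 to 7057 of all 15426 genes. Those past both thresholds were 0 with a pseudocount of 1, FPKM and both coverage settings, 2 with a pseudocount of 0.1 and 4 at 1.5-fold. Over all genes, 443 passed both thresholds with a pseudocount of 1, 379 with FPKM, 889 with a pseudocount of 0.1 and 1864 at 1.5-fold. With coverage, 616 passed both when it was scaled to the same total and 581 with median-ratio scaling. Calls were 3069 higher and 3143 lower with median-ratio scaling, 2954 and 3241 with quantile normalization, and 3130 and 3278 with median-ratio coverage. The cause was not tested.

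Same-numbered libraries of the mutants had correlations of -0.02, 0.05 and 0.02, and those with unlike numbers -0.06 to 0.04. These values concern departures from the mean of each mutant, not the levels themselves. No pairing by replicate number was seen, but correlations this weak cannot settle whether the samples were paired. With a replicate block, 4 of the 9 genes were called as before and 5 further complement genes (1 higher, 4 lower), beside 6987 of all 15426 genes (1600 higher, 5387 lower). Depth limits *Serping1* and *Cd55*, which had at most 1.32 reads per base, and the tables do not give read counts, so no counting interval is given.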
